A study of Schizosaccharomyces pombe with 4 samples.

Results

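Messenger RNA of 9 genes that regulate the meiotic divisions of fission yeast was followed early in meiosis, in diploids with and without the histone variant H2A.Z. The series as a whole is concerned with H2A.Z in the initiation of recombination, which precedes these divisions. The regulators are crs1, mes1, mfr1, slp1, spo4, spo5, spo6, mde3 and spo12, taken by gene symbol from the platform annotation. All 9 were measured, each by 1 probe set, among 2899 named genes on the array.

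The samples were 4 Schizosaccharomyces pombe diploids of mating type h+/h-, starved of nitrogen so that they enter meiosis, with 1 array for each of 2 genotypes at 1.5 h and 3 h. All 4 carried the heteroallelic ade6 pair 210 and 216, and were heterozygous for his5-303 and leu1-32. In the pht1 deletion, both copies of pht1, which encodes H2A.Z, were replaced by ura4+ in a homozygous ura4-D18 background, and the wild type had intact pht1. Values are log2 signals made by RMA, which equalizes the arrays, so each says how a transcript stands within its own array, and a signal of one probe set is not set against that of another gene. With 1 array a group there is no replicate check, and culture and genotype cannot be told apart.

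In meiosis a single round of DNA replication is followed by a pair of divisions, the first parting homologous chromosomes and the second parting sister chromatids. The divisions are driven by Cdc2 kinase with its cyclins, and are ended by the anaphase-promoting complex (APC/C), which marks cyclins and securin for destruction. Between the divisions, Cdc2 activity must fall only in part, so that cells enter the second division and do not leave meiosis early. The mRNAs of several meiotic genes, among them crs1, spo5, rec8 and mei4, are destroyed in growing cells by the Mmi1 system, and many genes of the divisions are switched on by the forkhead factor Mei4.

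As a check of the labels, pht1 read 7.37 and 7.36 in the deletion at 1.5 h and 3 h, against 12.70 and 12.86 in wild type. This shows what the pht1 probe set reads without its transcript. A value under 8.37, which is 1 log2 unit above the mean of the deleted pht1, is called dim below. The level rests on 1 probe set, and the background of the other probe sets was not measured. A fold given below as "at least" is therefore a bound against this working level only. The array medians ran between 11.23 and 11.27. The 6 markers of the meiotic state (ste11, mei2, mei3, rec8, dmc1 and mei4) had medians of 10.08 and 11.99 in the deletion at 1.5 h and 3 h, against 8.58 and 11.69 in wild type. All 6 were higher in the deletion at 1.5 h, by 0.64 to 1.60 log2 units. At 3 h the measured differences ran from 0.10 to 1.13, with ste11 (0.10) and mei2 (0.13) barely apart. None of the 6 was dim on a deletion array, while mei3 and mei4 were dim in wild type at 1.5 h. The part of this difference in the results that follow was not tested. In bulk RNA, more cells that have reached a stage and more RNA per cell cannot be told apart.

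Grouped by their values, the 9 regulators differed between the genotypes in 3 ways. The genes spo5 and crs1 were far higher in the deletion at 1.5 h, by 4.33 and 2.66 log2 units, and came within 0.78 and 0.23 of wild type at 3 h. The genes spo6, spo4, mfr1, mde3 and mes1 were measured higher in the deletion at both times, with the larger measured difference at 3 h. Against the dim level, the differences of spo4 and mde3 at 1.5 h were at least 0.08 and 0.17 log2 units, too small to be settled. The genes slp1 and spo12 were not higher at either time by more than 0.07. The plot of values by array shows all 36 measurements.

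**Figure D1:**
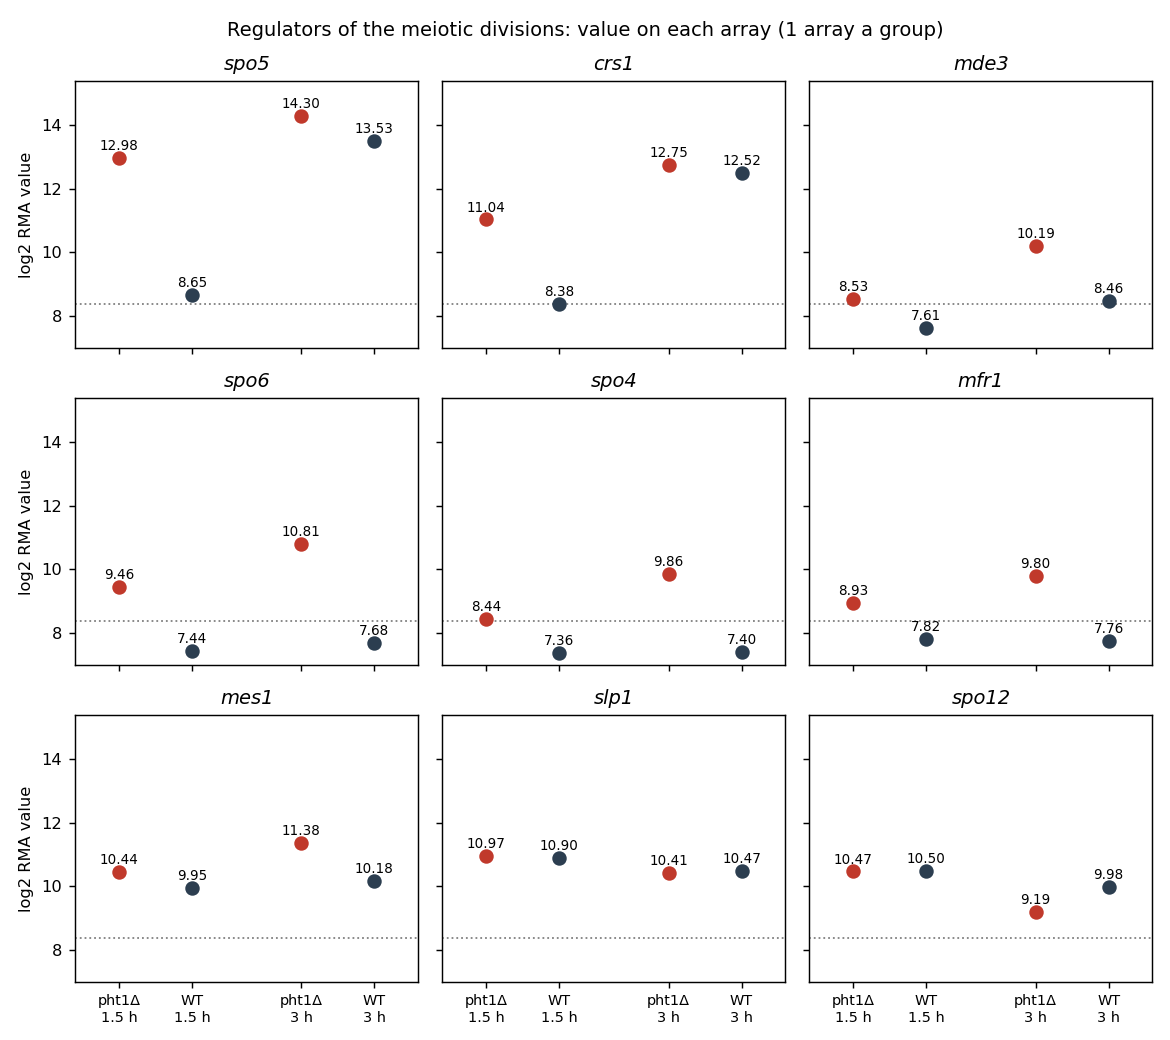
Log2 RMA value (vertical axis) of each of the 9 regulators on the 4 arrays, the pht1 deletion in red and wild type (WT) in dark blue, at 1.5 h and 3 h. Each point is 1 array, and the dotted line marks the level of 8.37 under which a value is called dim. The wild-type points of spo6, spo4 and mfr1 lie under the line at both times, and the deletion points of all 9 genes lie above it.

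Spo5 is an RNA-binding protein needed for the second division and for spore formation. Its probe set read 12.98 in the deletion at 1.5 h, against 8.65 in wild type. At 3 h it read 14.30 in the deletion, against 13.53 in wild type. Wild type at 1.5 h stood apart from the other 3 arrays, and the difference of 4.33 log2 units there is 20.1-fold. The order of the 4 levels was deletion at 3 h, wild type at 3 h, deletion at 1.5 h and wild type at 1.5 h.

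Crs1 is a cyclin made in meiosis. The crs1 probe set read 11.04 in the deletion at 1.5 h, against 8.38 in wild type, a value that barely cleared the dim level. At 3 h it read 12.75 in the deletion, against 12.52 in wild type. The order of the levels was the same as for spo5. The difference at 1.5 h was 6.33-fold, whereas at 3 h the levels were 0.23 log2 units apart. A working spread for the difference of 2 arrays, taken from the median absolute deviation of the difference of differences over 2400 genes, was 0.13 log2 units, so the crs1 levels at 3 h lay within 2 such spreads. Over the 636 genes with a mean under the 25th percentile of the arrays, the same spread was 0.17, and as a standard deviation over the 2400 genes it was 0.23.

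Spo6 and Spo4 form a kinase of the second division. Spo4 is the catalytic subunit, related to the replication kinase Hsk1 (Cdc7), and Spo6 is its regulatory subunit, related to Dfp1 (Dbf4). The spo6 probe set read 9.46 in the deletion at 1.5 h, against 7.44 in wild type, and 10.81 in the deletion at 3 h, against 7.68 in wild type. Both wild-type values were dim and the deletion values were not. The measured difference was 2.02 log2 units at 1.5 h and 3.13 at 3 h. Against the dim level, spo6 was at least 2.14-fold higher in the deletion at 1.5 h and at least 5.41-fold higher at 3 h. The spo4 probe set read 8.44 in the deletion at 1.5 h, against 7.36 in wild type, and 9.86 in the deletion at 3 h, against 7.40 in wild type. Its wild-type values were dim too, and the deletion at 1.5 h was barely above the dim level. The measured spo4 differences were 1.09 and 2.47, and against the dim level the gene was at least 1.05-fold higher in the deletion at 1.5 h and at least 2.82-fold at 3 h. The 2 subunits thus had the same order of levels among the deletion arrays, and their wild-type levels are unordered because they are dim.

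Mde3 is a protein kinase related to Ime2, a kinase known for its role in meiosis of budding yeast, and is named for its dependence on Mei4. The mde3 probe set read 8.53 in the deletion at 1.5 h, against 7.61 in wild type, which is dim. At 3 h it read 10.19 in the deletion, against 8.46 in wild type. The deletion at 3 h stood above the other 3 arrays, and the deletion at 1.5 h and wild type at 3 h were 0.07 apart, within the working spread. The difference was 0.92 log2 units at 1.5 h, or at least 1.12-fold against the dim level, and 1.73 at 3 h, which is 3.31-fold.

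A further 3 regulators act on the APC/C. Mes1 inhibits it between the divisions by binding its activators, Mfr1 (also called Fzr1) is an activator made in meiosis that acts at the exit from the second division, and Slp1 (Cdc20) activates it in mitosis as well as in meiosis. The mes1 probe set read 10.44 in the deletion at 1.5 h, against 9.95 in wild type, and 11.38 in the deletion at 3 h, against 10.18 in wild type. The deletion at 3 h was the highest array, and the deletion at 1.5 h exceeded wild type at 3 h by 0.26. The mes1 difference was 0.49 log2 units at 1.5 h and 1.20 at 3 h, which is 2.30-fold.

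For mfr1 the readings were 8.93 in the deletion at 1.5 h, against 7.82 in wild type, and 9.80 in the deletion at 3 h, against 7.76 in wild type. Wild type was dim at both times. The measured differences were 1.11 and 2.04, and against the dim level mfr1 was at least 1.48-fold higher in the deletion at 1.5 h and at least 2.70-fold at 3 h. The activator shared with mitosis differed from this: slp1 read 10.97 in the deletion at 1.5 h, against 10.90 in wild type, and 10.41 in the deletion at 3 h, against 10.47 in wild type. Its genotype differences of 0.07 and -0.06 were within the working spread. The inhibitor and the meiotic activator were thus both higher in the deletion, while slp1 ordered the arrays by time.

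Spo12 is a small protein whose relative in Saccharomyces cerevisiae takes part in the release of the phosphatase Cdc14 at the end of the divisions. The spo12 probe set read 10.47 in the deletion at 1.5 h, against 10.50 in wild type, and 9.19 in the deletion at 3 h, against 9.98 in wild type. The levels at 1.5 h could not be ordered, and the deletion at 3 h was the lowest array. The difference was -0.02 at 1.5 h and -0.79 at 3 h, the only regulator lower in the deletion by more than the working spread.

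**Figure D2:**
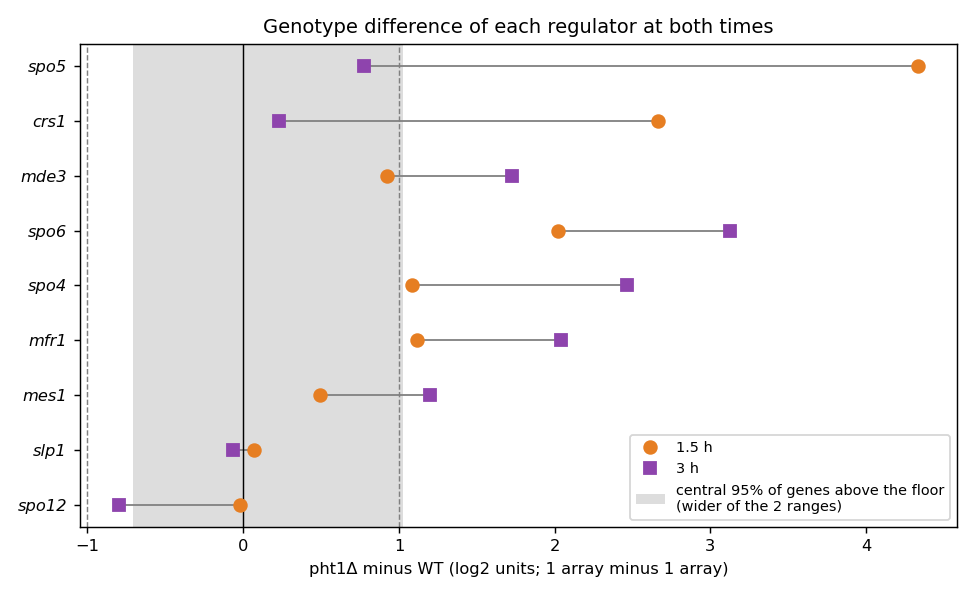
Difference in log2 value, pht1 deletion minus wild type (horizontal axis), for each regulator at 1.5 h (orange circles) and 3 h (purple squares), 1 array minus 1 array. The grey band spans the central 95% of genes that exceed the 25th percentile of the array (the wider of the ranges at the 2 times) and dashed lines mark 2-fold. The points of spo5 and crs1 lie farthest right at 1.5 h, those of spo6, spo4, mfr1, mde3 and mes1 farther right at 3 h.

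At 1.5 h, the measured difference passed 2-fold for 5 of all 9 regulators (crs1, mfr1, spo4, spo5 and spo6), all higher in the deletion, and 0 were 2-fold lower. Of all 2899 genes, 3.04% were 2-fold higher and 0.793% lower. With dim values raised to the dim level, 3 of the 9 (crs1, spo5 and spo6) stayed past 2-fold, where 2.45% of genes were higher. The median difference as measured was 1.09 over the 9 regulators and -0.03 over all genes, and with dim values raised it was 0.49 and -0.02. At 3 h, 5 of 9 (mes1, mfr1, spo4, spo6 and mde3) were 2-fold higher and 0 lower, where 2.41% of all genes were higher and 0.828% lower. The 5 stayed past 2-fold with dim values raised, where 1.97% of genes were higher. The medians at 3 h were 1.20 over the regulators and -0.01 over all genes, with dim values raised or as measured.

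Many of these values are low, so the count was also made with a floor, the 25th percentile of each array, which the higher array of the pair had to exceed. At 1.5 h, 5 regulators passed it and 2 of these (crs1 and spo5) were 2-fold higher, beside 2.57% of 2331 genes. At 3 h, 6 passed it and 3 (mes1, spo6 and mde3) were 2-fold higher, beside 1.88% of 2337 genes. With the floor 0 regulators were 2-fold lower at either time, beside 0.901% and 0.856% of genes. The regulators below the floor were mfr1, spo4, spo6 and mde3 at 1.5 h, and mfr1, spo4 and spo12 at 3 h. A gene passes through the array where it is high, so these counts describe only the regulators that passed.

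The change over time was then set side by side in the 2 genotypes. These values share arrays with the genotype differences and are no separate evidence. In the deletion, crs1 was higher at 3 h than at 1.5 h by 1.71 log2 units, mde3 by 1.66, spo4 by 1.42, spo6 by 1.34 and spo5 by 1.32. Further down were mes1 at 0.94 and mfr1 at 0.87, while slp1 was at -0.56 and spo12 at -1.29. In wild type, spo5 was higher at 3 h by 4.88 and crs1 by 4.14. The mde3 change of 0.85 started from a dim value, and against the dim level it was at least 0.10 log2 units. The wild-type changes of spo6 (0.24), mes1 (0.23), spo4 (0.04) and mfr1 (-0.06) were small, those of spo6, spo4 and mfr1 between dim values, and slp1 was at -0.43 and spo12 at -0.52.

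**Figure D3:**
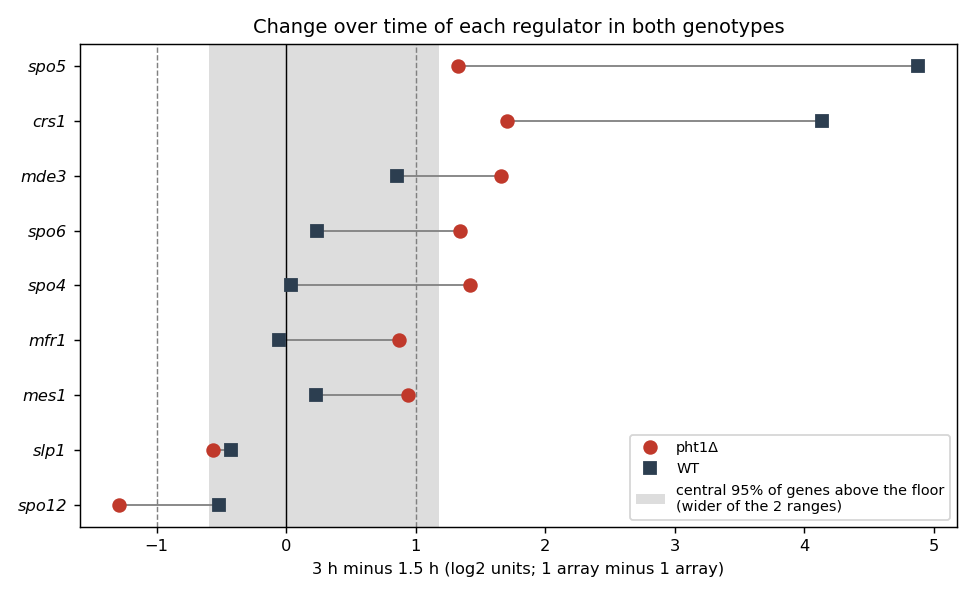
Difference in log2 value, 3 h minus 1.5 h (horizontal axis), for each regulator in the pht1 deletion (red circles) and in wild type (dark blue squares), 1 array minus 1 array. The grey band spans the central 95% of genes that exceed the 25th percentile of the array (the wider of the ranges in the 2 genotypes) and dashed lines mark 2-fold. The wild-type points of spo5 and crs1 lie beyond 4 log2 units, while those of mes1, spo6, spo4 and mfr1 lie between -0.06 and 0.24.

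Counted over all 9 regulators, 5 had a 3 h level 2-fold or more above the 1.5 h level in the deletion, where 2.41% of all genes were, and 1 (spo12) was lower, where 0.414% were. In wild type 2 of 9 (crs1 and spo5) were 2-fold higher, where 2.90% of all genes were, and 0 were lower, where 0.345% were. The difference of these differences was -3.55 for spo5 and -2.43 for crs1, whose change over time was larger in wild type. It was 0.71 for mes1, whose change was larger in the deletion. The measured values of spo4 (1.38), spo6 (1.10), mfr1 (0.93) and mde3 (0.80) were positive too, but rest on dim wild-type values and are not settled. For spo12 it was -0.77 and for slp1 -0.14. This quantity leaves no degree of freedom for a test. At 2-fold, 0.655% of all genes were positive and 1.48% negative.

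The deletion at 1.5 h was also set against wild type at 3 h, a comparison chosen after the values were seen. It asks only whether the earlier deletion array had reached the later wild-type level. Without a floor, spo6 was higher in the deletion at 1.5 h by 1.78 log2 units (at least 2.14-fold), mfr1 by 1.17 (at least 1.48-fold) and spo4 by 1.05 (at least 1.05-fold), where 1.14% of all genes were 2-fold higher. The levels of mde3 were 0.07 apart and those of mes1 0.26 apart. For slp1 and spo12 the deletion at 1.5 h was higher by 0.50 and 0.49. The deletion at 1.5 h was lower for spo5, with a difference of -0.55, and for crs1, with -1.48, where 1.76% of all genes were 2-fold lower. The 9 regulators therefore did not share a single order of these 2 arrays.

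The genotype difference averaged over the times was tested by limma, in an additive model of genotype and time that took the 2314 genes exceeding the floor on 2 or more arrays. Each gene keeps 1 residual degree of freedom, so a p-value reflects how these 4 arrays scatter and says nothing of the scatter between cultures. Of the regulators, 5 entered it and 0 were called at an adjusted p of 0.05 by limma, where 2.12% of genes were. An unadjusted p under 0.05 by limma was found for 2 of the 5 (mes1 and spo5). The share of all genes under that unadjusted p was not counted, so these 2 are no sign of a difference. The averaged difference was 2.55 ± 0.90 (SE) for spo5 with adjusted p = 0.183 by limma, higher in the deletion at both times. For crs1 it was 1.45 ± 0.62 (SE) with adjusted p = 0.237 by limma, and for mes1 0.85 ± 0.20 (SE) with adjusted p = 0.114 by limma. For spo12 and slp1 the adjusted p by limma was 0.325 and 0.979. A genotype effect that differs between the times enters the residual, so the standard errors of spo5 and crs1 hold their differences of differences.

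Without the floor, limma called 1 of the 9 regulators, spo6, where 3.66% of 2899 genes were called. Its difference was 2.57 ± 0.29 (SE) with adjusted p = 0.0346 by limma, higher in the deletion at both times, against wild-type values that are dim. The next were mfr1 (1.58, adjusted p = 0.0550), mde3 (1.33, adjusted p = 0.0589) and spo4 (1.78, adjusted p = 0.0713), which limma did not call. A total of 6 regulators had an unadjusted p under 0.05 in this fit by limma. The share of all genes under that p was not counted, so the 6 are no sign of a difference.

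Other genes of the divisions were read from lists by role, which held 64 measured genes besides the 9 regulators. At 1.5 h, 3 of the 64 (rec8, mei4 and rep1) were measured 2-fold or more higher in the deletion and 0 lower, with a median of 0.01. The mei4 difference was against a dim wild-type value. Of all genes, 3.04% were higher and 0.793% lower at 1.5 h. At 3 h, 3 of the 64 (apc14, mei4 and cuf2) were 2-fold higher and 0 lower, with a median of 0.11. Of all genes, 2.41% were higher and 0.828% lower at 3 h. With the floor, 1 of 31 (rep1) was higher at 1.5 h and 1 of 34 (mei4) at 3 h. The shares of all genes with the floor were 2.57% and 1.88%. At such shares a short list would hold few genes or none past 2-fold, so the counts by list below are descriptions. The plot of genotype differences by list shows the regulators spread more widely than each of these lists.

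**Figure D4:**
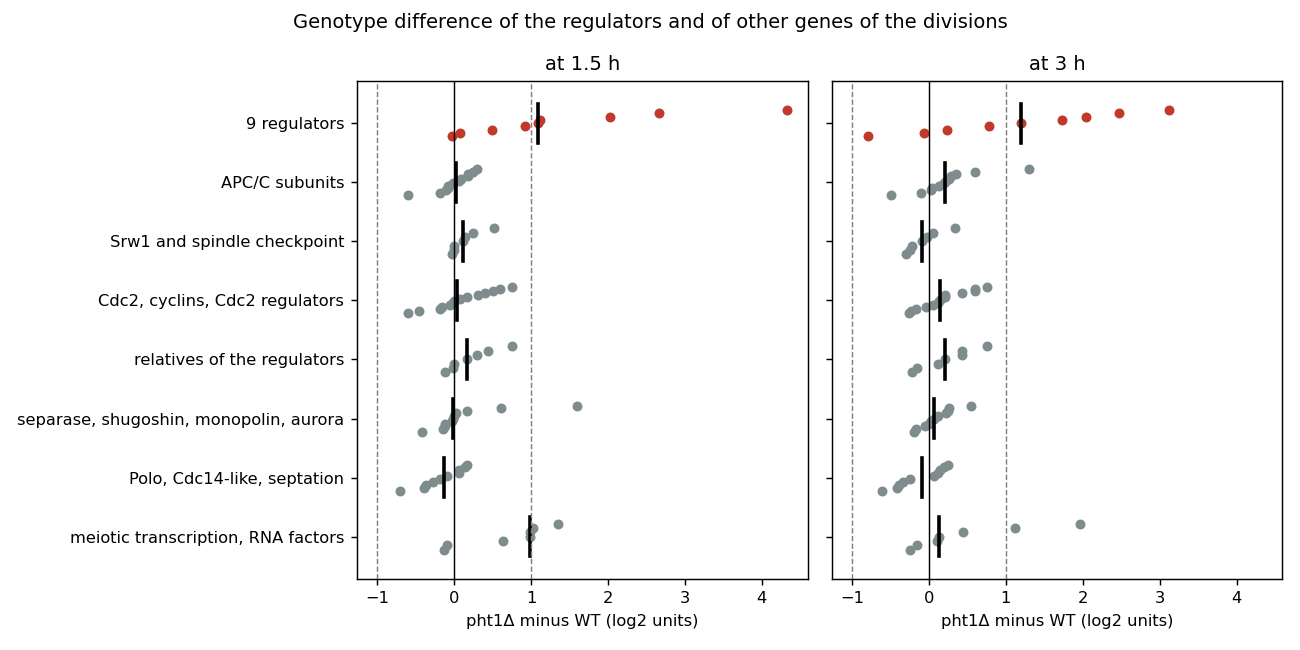
Difference in log2 value, pht1 deletion minus wild type (horizontal axis), at 1.5 h (left) and 3 h (right) for the 9 regulators (red) and for lists of other genes of the divisions (grey). Each point is 1 gene, black bars are medians over all measured genes of a list and dashed lines mark 2-fold. The medians of the regulators are 1.09 and 1.20, and the point of the APC/C list beyond 2-fold at 3 h is apc14 at 1.30.

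The subunits of the APC/C, the target of Mes1, Mfr1 and Slp1, were mostly close between the genotypes. Of 12 measured, 0 were 2-fold apart at 1.5 h and 1 at 3 h. That one was apc14, which read 9.55 in the deletion at 3 h, against 8.25 in wild type, a dim value. Of the rest, nuc2 was at 0.25 and 0.60, cut9 at 0.09 and 0.35, and apc11 at -0.60 and -0.49 at the 2 times. Among the other mitotic activator srw1 (also called ste9) and 6 spindle checkpoint genes, 0 of 7 were 2-fold apart at either time. The checkpoint gene mad3 was highest, at 0.51 and 0.33.

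Of 14 genes for Cdc2, other cyclins and Cdc2 regulators, 0 were 2-fold apart between genotypes at either time. Cdc2 itself was at 0.07 and 0.06, the mitotic cyclin gene cdc13 at -0.01 and 0.21, and the S-phase cyclin gene cig2 at 0.75 and 0.43. The meiotic cyclin gene rem1 differed from crs1: it read 7.60 in the deletion at 1.5 h, against 7.44 in wild type, and 8.16 in the deletion at 3 h, against 7.41 in wild type. All 4 of these are dim, so no rem1 difference is settled. The gene of the Wee1-like kinase Mik1, which holds Cdc2 inactive, was higher at 3 h than at 1.5 h by 1.49 in the deletion and 1.41 in wild type.

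The nearest relatives of the regulators' products were read at both times. The gene of Hsk1, the mitotic relative of Spo4, was at 0.44 and 0.11, and that of its partner Dfp1, the relative of Spo6, at 0.29 and 0.43. Pit1, an Ime2-like kinase as is Mde3, was at -0.11 and -0.16. Of the 7 relatives listed, 0 were 2-fold apart at either time.

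Among 11 genes for separase, shugoshin, monopolin and the aurora complex, the meiotic cohesin gene rec8 alone was 2-fold higher at 1.5 h, at 1.60. At 3 h rec8 was at 0.26, an order like that of crs1. The gene of the meiotic shugoshin Sgo1, which guards centromeric cohesin through the first division, was at 0.61 and 0.54. Securin (cut2, -0.01 and 0.12) and separase (cut1, 0.17 and -0.05) differed little, and moa1 of monopolar attachment was dim on all 4 arrays. Of 10 genes for Polo kinase, the Cdc14-like phosphatase and the septation network, 0 were 2-fold apart between genotypes. The septation gene etd1 was lower at 3 h than at 1.5 h, with a difference of -1.59 in the deletion and -0.91 in wild type, the same signs as spo12.

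Meiotic transcription and RNA factors were read as a further list, and some of them differed between the genotypes. Whether they act on the regulators here was not tested. The mei4 probe set read 9.20 in the deletion at 1.5 h, against 8.16 in wild type, and 10.45 in the deletion at 3 h, against 9.32 in wild type. Its wild-type value at 1.5 h was dim, so the measured difference of 1.03 there is at least 0.83 log2 units against the dim level, and the difference at 3 h was 1.13. The meiotic factor gene cuf2 was at 0.99 and 1.97, with dim wild-type values, and the activator gene rep1 at 1.35 and 0.44. Of the others, ste11 was at 0.99 and 0.10, mei2 at 0.64 and 0.13, fkh2 at -0.13 and -0.16, and mmi1 at -0.09 and -0.25.

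The 8 regulators whose values spanned at least 1 log2 unit were set against the 246 genes that did so, by the Euclidean distance between values centred on each gene's mean over the 4 arrays. Nearest to crs1 were num1 (distance 0.52), rec8 (0.82) and hop1 (0.83), and nearest to spo5 were meu10 (1.22), crs1 (1.25) and isp3 (1.34). Spo6 was nearest to mug137 (0.15), mug97 (0.16) and meu25 (0.27), and spo4 to meu27 (0.15), mug93 (0.33) and the septin gene spn6 (0.42). For mfr1 the nearest were cuf2 (0.11), mok14 (0.20) and mug146 (0.23), and for mes1 mug62 (0.13), mug28 (0.15) and the glucan synthase gene bgs2 (0.15). Mde3 was nearest to spn7 (0.38), mei4 (0.44) and mde2 (0.45), and spo12 to put4 (0.26), uds1 (0.27) and hrp1 (0.33). Among the regulators themselves, mfr1 and spo4 were 0.44 apart, spo4 and mde3 0.75, mes1 and mfr1 0.76, spo4 and spo6 0.81, and crs1 and spo5 1.25. Distances from spo4, spo6, mfr1 and mde3 rest in part on dim wild-type values. Distances from spo12 to the other 7 ran between 2.08 and 5.17. With 4 arrays these distances are descriptions.

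The genes beside the regulators on their chromosomes were read from the gene order of a RefSeq table. Of 24 measured neighbours within 2 positions, 1 was 2-fold apart at 1.5 h and 1 at 3 h. Of all genes, 3.04% were 2-fold higher and 0.793% lower at 1.5 h, and 2.41% and 0.828% at 3 h. The count of 1 of 24 is close to these shares. The neighbour apart was mug110, next to crs1, at 1.71 and 2.40. Its larger difference was at 3 h, where that of crs1 was at 1.5 h. The other side of crs1, ade9, was at 0.37 and 0.12. Beside spo5, ccr1 was at 0.01 and -0.14 and pcf1 at 0.02 and -0.13. Next to spo6, fim1 was at -0.03 and -0.06, and next to mfr1, fbp1 was at 0.50 and 0.58.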

How the data were processed

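Poly(A) RNA of 4 samples was labelled with biotin and hybridized to Affymetrix arrays, per the labels' protocols. The deposited values are log2 signals per probe set. RMA produced them, per the submitters' processing notes. Its version, and which arrays it normalized jointly, is not given in the sources used here. No depth applies, and the number of arrays limits the precision.

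Of 4999 probe sets, 2917 had 1 gene symbol, 20 had several and 2062 were unnamed here. By gene identifier, 2914 matched the RefSeq table of ASM294v3, giving 2899 genes. For 14 genes with several probe sets the highest mean was taken. The older name mes1 of rar1 was not used. The APC/C list held 13 names for 12 genes, since lid1 and cut20 are 1 gene.

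Differences are 1 array minus 1 array. Calls need 2-fold (1 log2 unit), with floors at the 25th percentile between 10.08 and 10.13 where stated. The additive fit used limma 3.58.1 in R 4.3.3 with an intensity trend and Benjamini-Hochberg adjustment, tested on simulated data. All 9 regulators are named, with list genes past 2-fold, nearest patterns and the examples chosen after their values were seen. The members and lists were chosen with earlier results of these data known. Other tools were matplotlib 3.10.9, statsmodels 0.14.6, pandas 2.3.3 and numpy 2.4.6 in Python 3.11.15. Alternatives covered scaling, floor, probe sets, fold threshold and variance model.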

Additional observations from a re-analysis of the deposited data

Results flagged for a closer look

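For 2 regulators, an effect had opposite signs in the 2 groups it was taken in, and neither difference was tested. The mfr1 change over time was 0.87 in the deletion and -0.06 in wild type, 0.93 log2 units apart, where both wild-type values are dim. The slp1 difference between genotypes was -0.06 at 3 h and 0.07 at 1.5 h, -0.14 log2 units apart, with both values within the working spread of 0.13.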

How the results depend on the processing

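Each of 171 single-regulator differences under equalized medians, quantile normalization, removal of the intensity trend and averaged probe sets moved by less than 0.13 log2 units. Those under averaged probe sets could not move, since each regulator has 1 probe set. In 2 of the 171 the sign changed, both the spo12 difference at 1.5 h. It was 0.01 after quantile normalization and 0.01 after removal of the trend, against -0.02 as deposited. The floor and the fold threshold decide the counts. With a floor at the array median, 1 of 1 regulator tested was 2-fold apart between genotypes at 1.5 h (spo5). At 3 h it was 1 of 3 (mes1), and over time in the deletion 2 of 3 (crs1 and spo5). Over all genes these counts were 49, 40 and 40. The number of all genes tested at this floor is not given here. The regulators' counts at it thus have no share beside them and are descriptions. Without a floor, 5 of 9 regulators were apart at 1.5 h and 5 of 9 at 3 h. At 1.5-fold, the genes apart numbered 218 and 151 between genotypes at 1.5 h and 3 h. Over time they numbered 137 in the deletion and 180 in wild type, and in the difference of differences 126. The last of these held 6 of 7 regulators tested. At 3-fold the genes apart numbered 33, 27, 18, 39 and 13, and 2 of 7 regulators tested (crs1 and mde3) were apart over time in the deletion. With the main settings they were 81, 64, 66, 78 and 55. Each fold threshold took 2331, 2337, 2328, 2330 and 2400 genes in that order. The limma fit called 49 genes, 1 with the floor at the array median, 106 without a floor, 31 without the trend and 166 after quantile normalization. It called 1 regulator (spo6) without a floor and 0 of those tested under the other alternatives. Fewer genes enter under a higher floor, and for the other shifts the cause was not tested. Raising dim values to the dim level was an alternative chosen after seeing the data. The floor lies more than 1 log2 unit above that level. The 2-fold counts of 1 array against 1 array made with the floor therefore could not change. In the difference of differences, the genes apart numbered 56 against 55, and the regulators apart 4 against 3. Signals near background limit spo4, spo6, mfr1 and mde3. No paired analysis was possible because each group has 1 array.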
